A study of Homo sapiens with 16 samples.

Results

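The genes described here are 8 human genes of iron import, storage and mitochondrial delivery: SLC25A37, TFRC, FTH1, FTL, HMOX1, SLC39A14, SLC11A2 and IREB2. They were picked by symbol from 2 expression tables that share 16957 genes, and each had 1 row in each table. The choice was made with earlier results of the same data known, among them the high SLC25A37 level of 1 treated group. The siRNA 2 difference of SLC25A37 is therefore given as a description, without a test.

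The 16 samples are xenografts in the brains of nude mice, 1 library per mouse. The implanted cells were U87, a long-used line from a human glioblastoma, carrying luciferase. All mice received exosomes labelled as coming from MSC, the labels' abbreviation, so the controls carried exosomes and an siRNA too. Group Myc1 (n = 3) received human MYC siRNA 1 and Scr1 (n = 4) scramble siRNA 1, in the first experiment. Group Myc2 (n = 5) received human MYC siRNA 2 and Scr2 (n = 4) scramble siRNA 2, in the second. For siRNA 1 the doses, 1e9 exosomes in 100 µl into the retro-orbital sinus, began on day 28 after implantation and were repeated every other day. The genotype is labelled WT throughout, the mice's age was not used here, and tumours were taken at euthanasia. Time of collection could thus differ between mice, the model is a single cell line, and nude mice lack T cells.

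Cells take up transferrin-bound iron through the transferrin receptor, and iron outside transferrin through metal transporters of the plasma membrane. Iron that is not used is stored in ferritin shells or passed into mitochondria, where it is built into heme and iron-sulfur clusters. When iron is scarce, iron regulatory proteins bind hairpins called iron-responsive elements: binding in the 3′ UTR of TFRC mRNA protects it from decay, and binding near the 5′ end of ferritin mRNAs blocks their translation. MYC is known in other cells to raise TFRC and IREB2 and to lower FTH1, and glioblastoma cells are known for high iron demand.

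The hairpins are shown because they are what joins IREB2, which encodes iron regulatory protein 2, to its targets among these genes. The pattern searched was a C, 5 bases, the loop CAGTGN and 5 bases that pair with the first 5, on the transcript strand, with G-T pairs allowed. The longest TFRC 3′ UTR in GENCODE 29 (2658 bases) held 4 such sites, on the minus strand of chromosome 3 in GRCh38. The first 50 transcribed bases of FTL in RefSeq's GRCh38.p14 held 1, on the plus strand of chromosome 19. FTH1 was not searched, and neither were hairpins of another form, so the sites shown are not a full list. The deposited values are on another build, hg19, and were matched by symbol only. The sites are written 5′ to 3′ as DNA, with the loop in capitals.
TFRC site 1 (chr3:196050979-196051007): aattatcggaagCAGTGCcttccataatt
TFRC site 2 (chr3:196050575-196050603): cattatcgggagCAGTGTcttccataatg
TFRC site 3 (chr3:196050510-196050538): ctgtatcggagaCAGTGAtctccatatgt
TFRC site 4 (chr3:196050463-196050491): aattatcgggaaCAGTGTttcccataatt
FTL site (chr19:48965335-48965358): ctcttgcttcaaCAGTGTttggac

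Of 4141 genes whose longest 3′ UTR was at least as long, searched over that length, 38 (0.92%) held any match and 1 (0.024%), TFRC itself, held 4. Of 35116 start windows of 50 bases, 8 (0.023%) held a match. None of the 10 SLC11A2 coding transcripts with a 3′ UTR matched this pattern, which says only that these letters are not in them. A match is a description of sequence. RNA levels bear on TFRC mRNA, but translation of the ferritins was not measured.

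Levels are CPM, read counts scaled to a common library total, or log2 CPM, and no level was set against another across the tables. Library sizes in M reads, estimated from the spacing of the lowest values, lay between 10.5 and 29.5 apart from Scr1 replicate 3, at 3.35. On the first principal component of the first table (31.3% of variance) Scr1 replicate 4 lay at 61.5 and the other libraries from -44.7 to 29.5. On that of the second table (43.8% of variance) Scr2 replicates 1 and 4 lay at 63.4 and 94.4. The other 7 libraries there lay from -47.6 to -2.74, so values without Scr2 replicates 1 and 4 are given where they matter. MYC, the siRNA target, held 38.1, 26.5 and 14.3 CPM in Myc1 and 21.2, 30.2, 50.7 and 108 CPM in Scr1, with overlapping groups (log2 difference -0.83, exact two-sided permutation p = 0.314). A fall of the target was thus not shown for siRNA 1. In the libraries labelled Myc2 it held 42.3 to 72.1 CPM against 25.9 to 47.1 CPM in Scr2, higher rather than lower (log2 difference 0.57, exact two-sided permutation p = 0.0397). The target goes against the label there, so this group is called by its label. All 9 markers of mesenchymal glioma cells listed for U87 were measured, and their sum was 12025 to 19037 CPM.

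Across all genes tested, limma called 0 of 13933 (0%) for siRNA 1 and 0 of 14208 (0%) for siRNA 2 at an adjusted p below 0.05. At an unadjusted p below 0.05 there were 485 genes (3.48%) and 1898 genes (13.4%). All 8 iron genes passed the filter on low values in both tables. None of those tested passed the adjusted threshold in either comparison, so none of the tested differences below is shown to exceed the spread between mice.

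SLC25A37 encodes mitoferrin 1, the carrier that brings iron across the inner mitochondrial membrane. Its levels in the libraries labelled Myc2 were 78.5, 128, 79.2, 84.9 and 65.5 CPM. In Scr2 they were 46.9, 43.3, 49.2 and 36.8 CPM. The lowest Myc2 library lay above the highest Scr2 library, so the groups did not overlap. This was so for 3.01% of the 14208 genes, and for 1.4% with Myc2 higher. The log2 difference was 0.96 ± 0.20 (SE), a 1.94-fold higher level. Leaving out single libraries gave 0.81 (without Myc2 replicate 2) to 1.05. The difference was 0.88 with both Scr2 replicates 1 and 4 removed. This is the difference by which the gene came to notice, so it has no test.

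The difference by which SLC25A37 came to notice was that of siRNA 2, so the first experiment was tested. Earlier results of these data were known at the choice, so this test cannot be called independent of it. SLC25A37 held 46.5, 46.8 and 51.9 CPM in Myc1 and 31.9, 44.4, 49.4 and 44.6 CPM in Scr1. The Myc1 libraries lay within or just above the Scr1 range. The log2 difference was 0.20 ± 0.23 (SE), with a 95% interval of -0.29 to 0.69 (limma adjusted p = 0.996, exact permutation p = 0.314). Without Scr1 replicate 1, the lowest library, it was 0.07. The effects of the siRNAs on SLC25A37 differed by -0.76, which contains the siRNA 2 value and is also given without a test. The plot of levels by tumour shows all 4 groups.

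**Figure D1:**
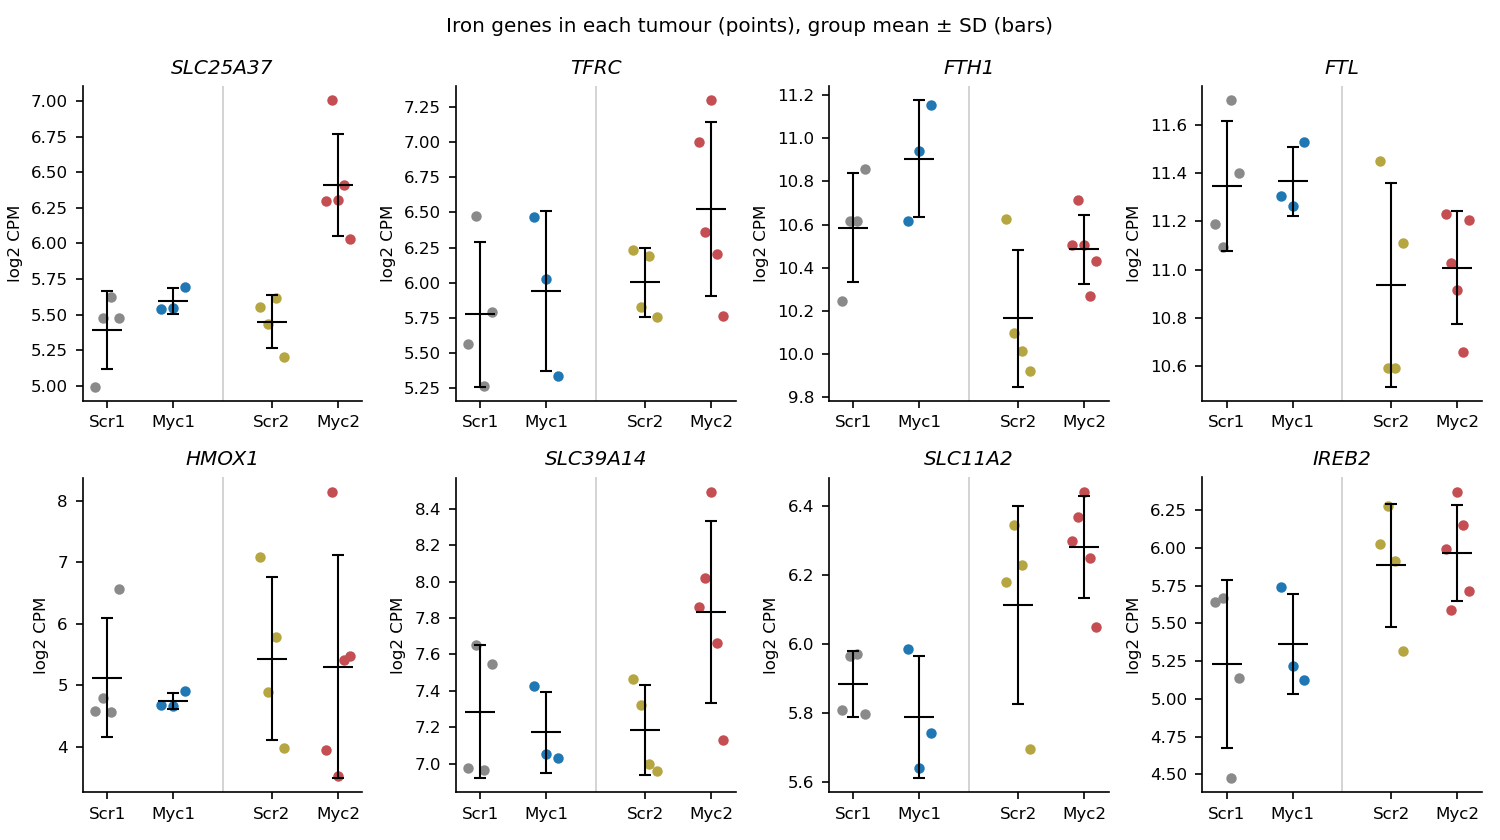
Levels of the 8 iron genes in log2 CPM (vertical axes, each with its own range) for Scr1 and Myc1 on the left of each panel and Scr2 and Myc2 on the right; points are tumours and bars the group mean ± SD. The grey line separates the 2 tables, which were normalized separately, so levels are not comparable across it; SLC25A37 is the only one of the 8 whose groups do not overlap, in the second experiment.

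TFRC encodes the transferrin receptor, the main route of iron into dividing cells. The libraries labelled Myc2 held 128, 82.3, 157, 73.9 and 54.3 CPM and Scr2 held 75.3, 56.9, 73.1 and 54.0 CPM. Replicates 1 and 3 of Myc2 were high, and the lowest Myc2 library was level with the lowest of Scr2. TFRC differed by 0.52 ± 0.29 on the log2 scale (SE), with a 95% interval of -0.11 to 1.15 (limma adjusted p = 0.390, exact permutation p = 0.159). Without Myc2 replicate 3 it was 0.33. In the first experiment Myc1 held 88.3, 65.3 and 40.4 CPM and Scr1 47.4, 89.1, 38.6 and 55.4 CPM, overlapping over nearly their whole range. This gave a log2 difference of 0.17 ± 0.32 (SE), from -0.095 to 0.47 with 1 library left out (limma adjusted p = 0.996).

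The sequence before the TFRC start is shown because it is the promoter of the member with the clearest known ties to both hypoxia-inducible factors and MYC. RefSeq's promoter table held 4 of the 8 members (TFRC, FTL, SLC11A2 and IREB2). The 250 bases upstream of the TFRC start, chr3:196082091-196082340 in GRCh38.p14, minus strand, read 5′ to 3′ with the hypoxia response core in capitals.
TFRC promoter: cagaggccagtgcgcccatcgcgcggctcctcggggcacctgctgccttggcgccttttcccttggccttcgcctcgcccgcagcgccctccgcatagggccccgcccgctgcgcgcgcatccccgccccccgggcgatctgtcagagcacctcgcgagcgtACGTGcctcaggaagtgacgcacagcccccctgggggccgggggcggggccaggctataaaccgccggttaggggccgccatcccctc

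On both strands, the core ACGTG was found once in TFRC, starting 88 bases upstream, and once in FTL, 11 bases upstream. The FTL match was on the reverse strand. The core was in none of the SLC11A2 or IREB2 windows, and in 18.5% of all 35116 promoters. The E-box CACGTG, the preferred site of MYC, which contains the ACGTG core, was in none of these windows and in 6.34% of promoters. The antioxidant response core TGACNNNGC, bound by NRF2, was in none of them and in 10.9% of promoters. Sites outside this window were not searched.

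SLC39A14 encodes ZIP14, a transporter of zinc, manganese and iron not bound to transferrin. The libraries labelled Myc2 held 232, 260, 360, 203 and 140 CPM and Scr2 held 177, 160, 128 and 124 CPM. All Myc2 libraries but replicate 5 lay above every Scr2 library. SLC39A14 differed by 0.65 ± 0.25 on the log2 scale (SE), a 1.57-fold higher level, with a 95% interval of 0.10 to 1.19. Its unadjusted limma p was 0.0235, its adjusted p 0.370 and its exact permutation p 0.0556, so it did not pass. It was the only one of the 7 members tested in this comparison with an unadjusted p below 0.05, against 13.4% of all genes. Without Scr2 replicates 1 and 4 the difference was 0.67.

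In the first experiment SLC39A14 held 172, 133 and 131 CPM in Myc1 and 126, 201, 125 and 187 CPM in Scr1. The log2 difference was -0.11 ± 0.23 (SE; limma adjusted p = 0.996), with the groups overlapping. The siRNA 1 and siRNA 2 effects on SLC39A14 differed by -0.76 ± 0.36 (SE), with an unadjusted p of 0.0464 and a limma adjusted p of 0.532. The joint test called 0 of 14891 genes (0%), with 8.74% at an unadjusted p below 0.05. The size of the SLC39A14 contrast was thus not shown to differ between the siRNAs.

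SLC11A2 encodes DMT1, which moves ferrous iron out of endosomes after transferrin uptake. Myc1 held 63.3, 49.8 and 53.5 CPM and Scr1 56.0, 62.4, 62.6 and 55.5 CPM, a log2 difference of -0.10 ± 0.21 (SE). The libraries labelled Myc2 held 66.2 to 86.8 CPM, with a median of 78.7, and Scr2 72.4, 81.3, 75.0 and 51.8 CPM. Scr2 replicate 4 alone was low, and the log2 difference of 0.17 ± 0.17 (SE) was 0.03 without it. The 95% interval of -0.20 to 0.54 bounds the siRNA 2 difference (limma adjusted p = 0.600).

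FTH1 encodes the ferritin heavy chain, which oxidises iron for storage, and FTL the light chain, which helps form the mineral core. Both stood at or above percentile 99.5 of genes in every library; quantile normalization gives equal ranks equal values, so some libraries share a value. FTH1 held 1572, 1967 and 2283 CPM in Myc1 and 1213, 1572, 1572 and 1855 CPM in Scr1. FTH1 thus differed by 0.32 ± 0.21 on the log2 scale (SE; limma adjusted p = 0.996, exact permutation p = 0.200). In the libraries labelled Myc2 it held 1454, 1682, 1454, 1234 and 1382 CPM, and in Scr2 1581, 1096, 1033 and 969 CPM. Scr2 replicate 1 lay among the Myc2 libraries and the other 3 below all of them. Here FTH1 again differed by 0.32, ± 0.19 (SE; limma adjusted p = 0.399, exact permutation p = 0.0952). It was 0.48 without Scr2 replicate 1 and 0.24 without Scr2 replicate 4. The effects of the siRNAs on FTH1 differed by less than 0.01, but the 95% interval of that difference ran from -0.58 to 0.58.

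FTL had the difference nearest to 0 of the 8 genes in both experiments. Myc1 held 2532, 2457 and 2952 CPM and Scr1 2332, 2184, 3330 and 2706 CPM, a log2 difference of 0.02 ± 0.20 (SE; limma adjusted p = 0.998). The libraries labelled Myc2 held 2404, 2088, 1932, 1616 and 2362 CPM and Scr2 2798, 1544, 1544 and 2213 CPM. Scr2 fell into a high pair, replicates 1 and 4, and a low pair, replicates 2 and 3, and the Myc2 libraries lay above the low pair and below replicate 1. The log2 difference was 0.07 ± 0.22 (SE; limma adjusted p = 0.876), and 0.42 without replicates 1 and 4. The balance of the chains, log2 FTH1 minus log2 FTL in a tumour, averaged -0.46 (SD 0.20, n = 3) for Myc1 against -0.76 (SD 0.30, n = 4) for Scr1 (exact permutation p = 0.200). Myc2 averaged -0.52 (SD 0.21, n = 5) against -0.77 (SD 0.31, n = 4) for Scr2 (exact permutation p = 0.198). The FTH1 share was nominally larger with either MYC siRNA, and neither shift passed the test. For siRNA 1 the shift rested on Scr1 replicate 1, at -0.94, and the shallow Scr1 replicate 3, at -1.08. Scr1 replicates 2 and 4, at -0.47 and -0.54, lay within the Myc1 range of -0.69 to -0.32. For siRNA 2 the shift rested on Scr2 replicates 1 and 4, at -0.82 and -1.19. Scr2 replicates 2 and 3, at -0.49 and -0.58, lay within the Myc2 range of -0.77 to -0.31. Ferritin genes have many processed pseudogenes that can take their reads. The tables analysed held 0 rows named as FTH1 or FTL pseudogenes, so how such reads were counted is not known and the ferritin values are uncertain to that extent.

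HMOX1 encodes heme oxygenase 1, which frees iron from heme and is induced by heme, oxidants and hypoxia. In Scr1, Myc2 and Scr2 it had the widest range of the 8 genes. The libraries labelled Myc2 held 15.4, 284, 11.5, 42.7 and 44.6 CPM, a 24.7-fold range within 1 group. Scr2 held 135, 29.5, 55.3 and 15.7 CPM. High and low tumours occurred in both groups. HMOX1 differed by -0.13 ± 0.86 on the log2 scale (SE), with a 95% interval of -2.02 to 1.76 (limma adjusted p = 0.948), so a change of several fold in either direction was not detectable. In the first experiment Myc1 held 25.5, 25.3 and 29.9 CPM and Scr1 24.0, 27.8, 23.6 and 94.9 CPM. Scr1 replicate 4 stood alone, and the log2 difference of -0.38 ± 0.43 (SE) became 0.10 without it.

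IREB2, for iron regulatory protein 2, held 53.5, 37.2 and 35.0 CPM in Myc1 and 49.9, 50.9, 22.2 and 35.3 CPM in Scr1. Its lowest value was in the shallow Scr1 replicate 3. IREB2 differed by 0.13 ± 0.30 on the log2 scale (SE) with that library and -0.12 without it. In the libraries labelled Myc2 it held 48.2 to 82.8 CPM, with a median of 63.6, and in Scr2 65.2, 77.6, 60.4 and 39.9 CPM. The log2 difference was 0.08 ± 0.23 (SE; limma adjusted p = 0.863), and -0.11 without Scr2 replicate 4. IREB2 protein is controlled mainly by iron-dependent decay, which RNA levels do not show.

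**Figure D2:**
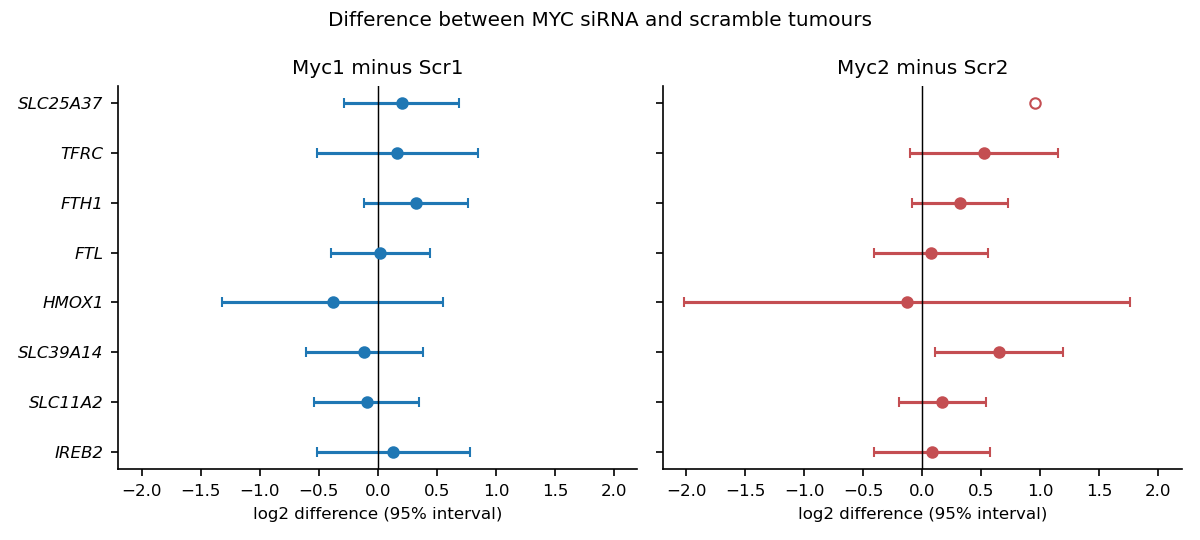
Log2 difference between MYC siRNA and scramble tumours for each iron gene (horizontal axis), in the first experiment on the left and the second on the right; points are limma estimates and bars 95% intervals, not adjusted over all genes. The open point is SLC25A37 in the second experiment (0.96), drawn without an interval because the gene was chosen on it; SLC39A14 there spans 0.10 to 1.19, and the interval of HMOX1 is the widest.

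As a group, 5 of the 8 genes lay above 0 for siRNA 1, with a median log2 difference of 0.08. Of the 7 other than SLC25A37, 4 lay above 0 for siRNA 1 (median 0.02) and 6 for siRNA 2 (median 0.17). Over all genes tested, 49.5% and 48.2% lay above 0, with medians of -0.0028 and -0.02. Without Scr2 replicates 1 and 4, 4 of these 7 lay above 0 for siRNA 2 and their median was 0.42. The number of genes past the adjusted threshold was 0 of 8 for siRNA 1 and 0 of 7 tested for siRNA 2. An unadjusted p below 0.05 was reached by 0 of 8 and 1 of 7.

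The genes with the levels most like SLC25A37 were taken as those with the highest value of the smaller of its Pearson correlations across the 7 libraries of the first table and the 9 of the second. Among 13656 genes these were STC2, a secreted glycoprotein (r = 0.89 in each table), TGFA, an EGFR ligand (r = 0.89 and 0.88), and MIB2, a ubiquitin ligase (r = 0.88 and 0.91). CTSB, a lysosomal protease, followed with r = 0.91 and 0.86, and LPCAT1, a phospholipid enzyme, with r = 0.95 and 0.86. These values are a description over few libraries that share depth, normalization and group. Those of the second table also carry the difference between Myc2 and Scr2.

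Other iron genes were grouped by role in lists drawn up with earlier results known. The carriers and enzymes of mitochondrial iron, heme and iron-sulfur synthesis formed the largest list, with all 32 measured. For siRNA 2, 26 of 32 lay below 0 and 6 above, with a median log2 difference of -0.41, the opposite side from SLC25A37. Of these, 0 passed the adjusted threshold and 7, all below 0, had an unadjusted p below 0.05, against 13.4% of all genes. Removing Scr2 replicates 1 and 4 left a median of -0.058, with 23 of 32 below 0 and 2 at an unadjusted p below 0.05. Over all genes in that setting 54.3% lay below 0 and 3.39% had such a p. Removing single libraries gave medians from -0.46 to -0.25. The shift was thus smaller without the Scr2 libraries that stood apart. For siRNA 1, 18 of 32 lay above 0, with a median of 0.10.

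SLC25A28 encodes mitoferrin 2, the close relative of SLC25A37 used outside red-cell precursors. In the libraries labelled Myc2 its level was 4.43, 4.49, 4.55, 4.59 and 4.69 log2 CPM, and in Scr2 5.31, 4.66, 4.79 and 5.43. It lay in the opposite direction to SLC25A37, at a log2 difference of -0.50 ± 0.19 (SE; limma adjusted p = 0.370), but at -0.17 ± 0.17 without Scr2 replicates 1 and 4. ABCB10, a mitochondrial transporter known to bind and stabilise mitoferrin 1, held 4.43, 3.85, 4.01, 4.498 and 4.24 log2 CPM in Myc2 and 4.505, 4.85, 4.68 and 4.52 in Scr2. Its groups nearly touched but did not overlap, as for 1.61% of all genes with Myc2 lower. The log2 difference was -0.44 ± 0.19 (SE; limma adjusted p = 0.370) and -0.56 ± 0.22 without Scr2 replicates 1 and 4. For siRNA 1 ABCB10 differed by -0.46 ± 0.28 (SE; limma adjusted p = 0.996), with overlapping groups. ABCB10 was singled out after its values were seen.

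Within the mitochondrial list the smallest p for siRNA 2 were those of the heme enzyme UROS (log2 difference -0.71 ± 0.26), SLC25A28 and the iron-sulfur protein CISD2 (-0.55 ± 0.23). With Scr2 replicates 1 and 4 removed, UROS stood at -0.23 and CISD2 at -0.15. For siRNA 1 they were TMEM14C, a porphyrin carrier (0.71 ± 0.25), BOLA3, an iron-sulfur assembly factor (0.51 ± 0.27), and ALAS1, the first enzyme of heme synthesis (-0.45 ± 0.27). TMEM14C held 7.13, 7.31 and 7.64 log2 CPM in Myc1 and 6.57, 7.02, 6.91 and 6.09 in Scr1, with no overlap, as for 4.21% of all genes (1.94% with Myc1 higher).

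Of the list of iron uptake and export, 8 of 20 genes were tested in each experiment. For siRNA 2, 6 of 8 lay above 0, with a median of 0.47, and 0 passed. The smallest p were those of MELTF, melanotransferrin (0.82 ± 0.27), NEO1 (0.36 ± 0.17) and STEAP2, a metalloreductase (0.63 ± 0.32). With that pair removed the median was 0.18 and these genes stood at 0.54, 0.19 and 0.05. For siRNA 1, 5 of 8 lay above 0 (median 0.16). There SLC39A8, the nearest relative of SLC39A14 (0.38 ± 0.25), MELTF (-0.28 ± 0.23) and STEAP1 (0.18 ± 0.24) had the smallest p. MELTF lay on opposite sides of 0 in the 2 experiments, with overlapping groups in both. Storage and sensing genes had medians of 0.05 for siRNA 1 (4 of 6 above 0) and 0.08 for siRNA 2 (3 of 6 above 0). The siRNA 2 median turned to -0.067, with 2 of 6 above 0, without Scr2 replicates 1 and 4. Among them the smallest p were those of FBXL5, which marks IREB2 protein for decay, HERC2 and PCBP2 for siRNA 1 (0.45 ± 0.25, -0.38 ± 0.24 and 0.24 ± 0.21). For siRNA 2 they were HERC2, FBXL5 and PCBP1 (0.27 ± 0.27, -0.17 ± 0.17 and 0.16 ± 0.16). With the same pair removed HERC2 turned to -0.17, FBXL5 stood at -0.12 and PCBP1 at 0.28. NCOA4, the receptor for ferritin breakdown, differed by 0.04 ± 0.23 and -0.03 ± 0.14, and ACO1, iron regulatory protein 1, by 0.05 ± 0.20 and -0.0078 ± 0.17, for siRNA 1 and siRNA 2. Without the pair NCOA4 stood at -0.15 and ACO1 at -0.014 for siRNA 2.

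Genes of heme uptake and breakdown had medians of 0.05 for siRNA 1 (6 of 9 above 0) and -0.03 for siRNA 2 (3 of 8 above 0), and 0 passed. For siRNA 2 the smallest p were those of BLVRA, which acts after heme oxygenase (-0.64 ± 0.23), LRP1, a receptor that takes up heme bound to hemopexin (1.30 ± 0.58), and the constitutive heme oxygenase HMOX2 (-0.54 ± 0.26). With Scr2 replicates 1 and 4 removed these stood at -0.20, 0.22 and -0.15. For siRNA 1 they were PGRMC1 (0.35 ± 0.24), LRP1 (-0.16 ± 0.20) and SLC46A1 (0.49 ± 0.63).

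**Figure D3:**
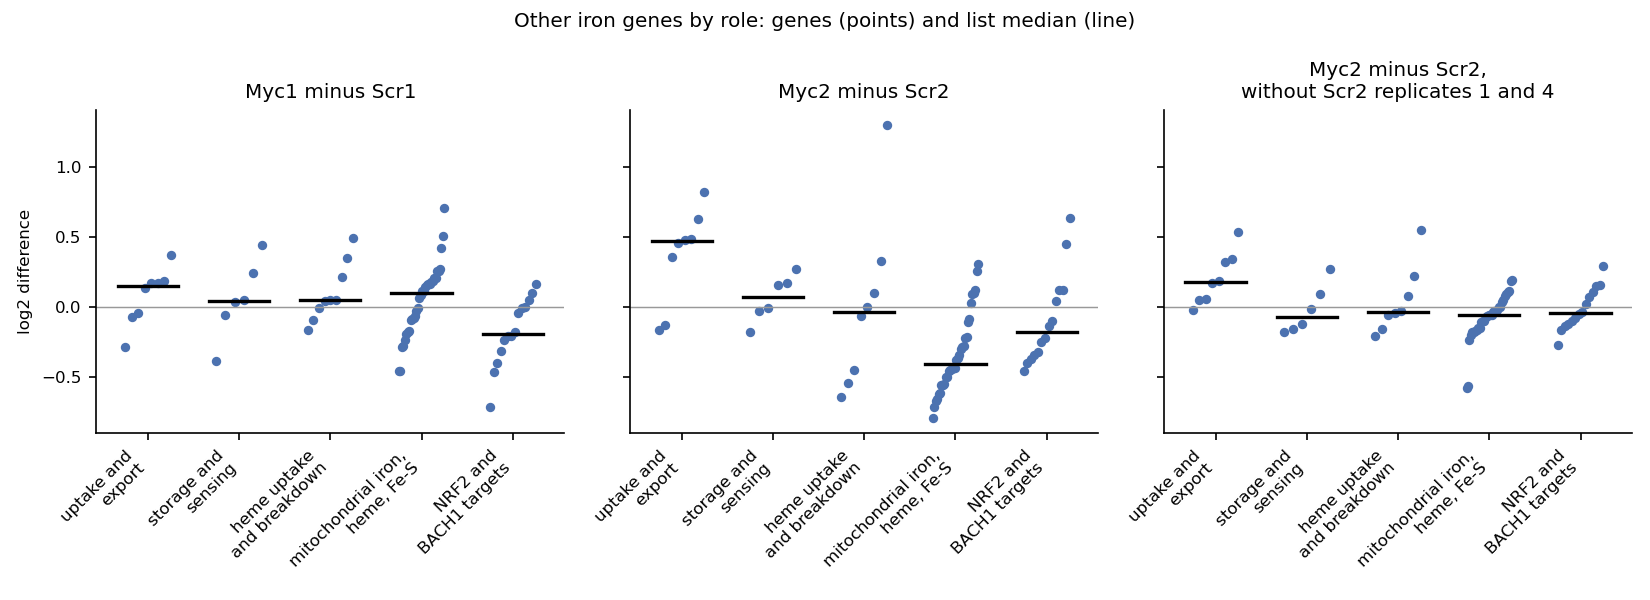
Log2 difference (vertical axis) of other iron genes by role, for the first experiment, the second experiment and the second without Scr2 replicates 1 and 4; points are genes and lines list medians. The mitochondrial list has its median at -0.41 in the second experiment and at -0.058 without those libraries.

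HMOX1, FTH1 and FTL are known targets of NRF2, the oxidant-response factor, and of its competitor BACH1. The list of these factors and their other targets had 14 of 15 genes tested. Its median was -0.19 for siRNA 1 (10 of 14 below 0) and -0.18 for siRNA 2 (9 of 14 below 0), and 0 passed. The smallest p were those of BACH1 (-0.46 ± 0.29), its partner MAFG (-0.31 ± 0.22) and the cystine carrier SLC7A11 (-0.71 ± 0.56) for siRNA 1. For siRNA 2 they were MAFG (0.63 ± 0.24), TXN (-0.45 ± 0.22) and SRXN1 (-0.34 ± 0.18). MAFG did not overlap between the groups for siRNA 1, as for 2.27% of all genes with Myc1 lower. The siRNA 2 median was -0.044 without Scr2 replicates 1 and 4, where MAFG stood at 0.29, TXN at -0.051 and SRXN1 at -0.12.

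Tumours with high HMOX1 held other genes of this list both above and below their group. In Scr1 replicate 4 HMOX1 lay 1.92 log2 units above the mean of the other Scr1 libraries. Beside it OSGIN1 lay 1.04 above, while GCLM lay 0.16 above and TXN 0.98 below (log2 difference of -0.98). In Myc2 replicate 2 HMOX1 lay 3.56 above the other Myc2 libraries, with OSGIN1 0.70, NQO1 0.52 and FTH1 0.29 above and SLC7A11 at -2.24. SLC25A37 in the same tumour lay 0.74 above.

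**Figure D4:**
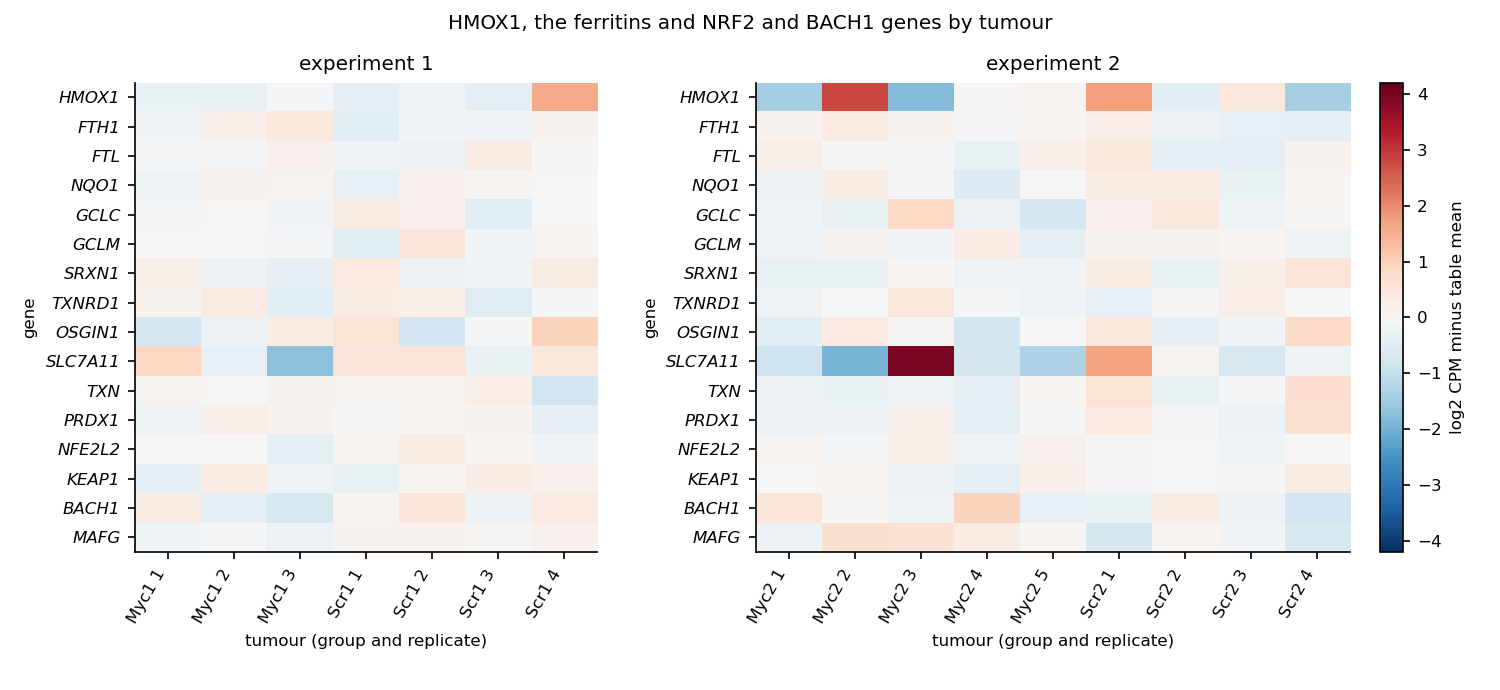
Level of HMOX1, both ferritins and other NRF2 and BACH1 genes in each tumour, as log2 CPM minus the mean of the gene over its table (colour), for the first experiment on the left and the second on the right. HMOX1 is high in Scr1 replicate 4, Myc2 replicate 2 and Scr2 replicate 1, where FTH1 lies 0.13, 0.37 and 0.28 and FTL 0.05, 0.05 and 0.47 above its mean.

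Red-cell precursors are rich in TFRC and SLC25A37, and macrophages in HMOX1 and ferritin, so markers of host cells were set beside these genes. The host is a mouse, the genes measured are human, and how mouse reads were handled is not known. Low or absent marker values therefore do not measure the amount of host tissue. In bulk tissue fewer cells of a type and less RNA per cell cannot be told apart. Of 7 erythroid markers 0 were measured in either experiment, so a part of red-cell precursors in TFRC and SLC25A37 could not be assessed. Of 6 neutrophil markers only ELANE was measured, at 1.29 CPM or less in every library. Of 8 macrophage and microglia markers CD68 and CSF1R were measured in both tables and PTPRC in the second. Their sum was 332 to 403 CPM in Myc1, 246 to 347 in Scr1, 178 to 277 in Myc2 and 163 to 268 in Scr2. CD68 is also expressed by glioma cells; it differed by 0.34 ± 0.20 for siRNA 1 and 0.02 ± 0.20 for siRNA 2, and CSF1R by -0.25 ± 0.31 and 0.03 ± 0.30. The part of host cells in the HMOX1 and ferritin values was not tested.

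Neuron markers (4 of 5 measured) summed to 13.1 to 26.8 CPM over all libraries, and the single oligodendrocyte marker measured, MBP, to 1.27 CPM at most. SNAP25 differed by 0.81 ± 0.35 for siRNA 1 and -0.56 ± 0.48 for siRNA 2, SYT1 by -0.36 ± 0.39 and -0.38 ± 0.36, and GAD1 by -0.12 ± 0.32 and 0.23 ± 0.21. Endothelial markers (CDH5 and VWF in the second table, VWF in the first) summed to 1.47 to 9.12 CPM in Myc2 and 1.32 to 3.52 in Scr2, with CDH5 at 2.28 ± 0.91 and VWF at 0.03 ± 0.45. Of the glioma markers, SPARC and TIMP1 differed by 0.31 ± 0.21 and 0.21 ± 0.22 for siRNA 1, and LGALS1 and S100A6 by -0.82 ± 0.21 and -0.62 ± 0.30 for siRNA 2. Of all 9 glioma markers, 7 lay above 0 for siRNA 1 and 5 for siRNA 2, where the median was 0.014. For siRNA 2, 1 lay above 0 and 1 below at an unadjusted limma p below 0.05, against 13.4% of all genes. The value of the marker above 0 at such a p is not reported here. LGALS1 and S100A6, both below 0, therefore do not stand for the list. None of these markers passed the adjusted threshold.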

How the data were processed

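Tumour RNA was sequenced where its integrity number was 7.2 or higher, per the labels' protocols. Builds hg19 and mm10 and the programs Picard, STAR 2.6.0b and bcl2fastq 2.20.0 are named per the submitters' processing notes. How reads were counted and annotated, and whether mouse reads were removed, was not given in the sources used here. Each experiment has 1 table of log2 values made by the authors (17318 and 18168 genes). Raised from log2, the deposited values sum to 995054 to 998392 per sample and share 1 distribution per table, so they are quantile-normalized log2 CPM. A change in total RNA cannot be seen in them.

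Genes reaching 1 CPM in 3 samples (first table and joint fit) or 4 (second) were fitted with limma 3.58.1 in R 4.3.3 (trend and robust), with Benjamini-Hochberg adjustment over all genes at 0.05. Single members were tested by two-sided exact permutation of group labels (35 and 126 arrangements; smallest p 0.0286 and 0.00794). Library sizes were estimated from steps 2 to 20 of the lowest values, spaced as log2(count + 0.5). On simulated counts the estimates were off by at most 6.73% (17318 genes) and 3.68% (18168 genes), and limma recovered 73.0% and 89.0% of 2-fold changes. Those counts had the same spread setting for every gene and no libraries standing apart. The recovery therefore does not give the power in the real data. Members and lists were chosen with earlier results of these data known. The rule for named genes took the members, the 3 with the smallest p of each list and comparison, and the 5 most like SLC25A37; some results are not reported here. ABCB10, NCOA4, ACO1, OSGIN1, GCLM and NQO1 fall outside it and were chosen after their values were seen, as was leaving SLC25A37 out of the siRNA 2 counts. P-values measure the spread between mice of 1 experiment.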

Additional observations from a re-analysis of the deposited data

Results flagged for a closer look

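HMOX1 in Scr1 replicate 4 stood apart from the other Scr1 tumours: its gap to the nearest library was 0.882 of the range of the group, above the 95% critical value for 4 samples. Of the 24 sets of values checked (8 genes in Scr1, Myc2 and Scr2) it was the only one to do so. Chance gives about 1 in 20 such sets, so 1 among 24 is about what chance would give. HMOX1 was 94.9 CPM in that library and 23.6 to 27.8 CPM in the other 3. The same library held the most MYC of the first experiment, at 108 CPM.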

How the results depend on the processing

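With log2(CPM + 0.1), log2(CPM + 1), no filter on low values, median-ratio rescaling or limma without trend and robust settings, each iron gene kept its direction. Where a gene was tested, it also kept its side of the threshold. The filter and the limma settings do not enter a gene's estimated difference, so its direction could not change with them. Rescaling moved the median of all genes by at most 0.02. Without Scr2 replicates 1 and 4, 2 genes were called for siRNA 2 and 473 had an unadjusted p below 0.05 (210 for the difference between siRNAs), and SLC11A2 and IREB2 stood at -0.0065 and -0.13. With 1 library left out, the genes called ran from 0 to 2 (siRNA 1), 0 to 9 (siRNA 2, the most without Myc2 replicate 3) and 0 to 0 (difference), with 0 iron genes among those tested. Genes at an unadjusted p below 0.05 numbered, for siRNA 1, at least 169 (Myc1 replicate 3 left out) and at most 955 (Scr1 replicate 3 left out), from 703 (Scr2 replicate 4 left out) up to 3847 (Scr2 replicate 2 left out) for siRNA 2, and 583 to 2937 for the difference. Directions that depended on 1 library were, for siRNA 1, TFRC (-0.095 to 0.47), FTL (-0.065 to 0.14), HMOX1 (-0.57 to 0.10), SLC39A14 (-0.24 to 0.0080) and IREB2 (-0.12 to 0.28). For siRNA 2 they were FTL (-0.044 to 0.24), HMOX1 (-0.84 to 0.42) and IREB2 (-0.11 to 0.21). For the difference they were FTH1 (-0.15 to 0.14), FTL (-0.22 to 0.067), HMOX1 (-0.80 to 0.46) and IREB2 (-0.20 to 0.24). The cause was not tested. Leaving libraries out of the difference, and of list counts, was added after seeing the data. Sums over ferritin pseudogenes or repeated symbols were not run, since each symbol had 1 row and the pseudogenes 0. No paired analysis was possible because the labels give no replicate numbers.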
